A study of Mus musculus with 27 samples.

Results

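The imprinted domain of central mouse chromosome 7, the counterpart of the human Prader-Willi and Angelman region, was followed through 7 of its genes, Mkrn3, Magel2, Ndn, Peg12, Snrpn, Snurf and Ube3a, which were selected by name from the 24065 genes of the count table. Of these, 5 averaged 10 or more counts per embryo and were tested, while Snrpn and Snurf were not. The transcripts were measured by RNA-Seq of individual whole E8.5 C57BL/6J embryos, 1 library per embryo, from 3 WT embryos and 3 littermates of the genotype Dnmt3b-/-. The Dnmt3b-/- embryos are homozygous for a catalytically inactive allele of the DNA methyltransferase gene Dnmt3b, made by crossing floxed Dnmt3b-2lox mice with the ubiquitous deleter line ACTB-Cre, and come from matings between heterozygous mice. The allele is inactive throughout the embryo. All embryos are labelled as 1 inbred strain, so that the counts carry no information on which parental allele was transcribed.

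Genomic imprinting restricts transcription to the allele of 1 parent, through methylation marks laid down in the germline and kept after fertilization. In this domain Mkrn3, Magel2, Ndn, Peg12 and the Snurf-Snrpn transcription unit are expressed from the paternal chromosome, under the control of an imprinting center at the Snrpn promoter. Ube3a is expressed from both alleles in most tissues and from the maternal allele in neurons, where the long antisense RNA Snhg14, which extends from Snrpn, covers the paternal copy. Loss of the paternal products is the basis of Prader-Willi syndrome and loss of maternal UBE3A that of Angelman syndrome.

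DNMT3B methylates cytosines in CG dinucleotides, so the promoters of the genes on which the results turn are shown with their CG sites in capitals, on the strand of each gene. They are the 250 bases before the RefSeq start in GRCm38, at chr7:62420154-62420403 (minus strand) for Mkrn3, chr7:62376729-62376978 (plus strand) for Magel2 and chr7:59228500-59228749 (plus strand) for Ube3a.
Mkrn3: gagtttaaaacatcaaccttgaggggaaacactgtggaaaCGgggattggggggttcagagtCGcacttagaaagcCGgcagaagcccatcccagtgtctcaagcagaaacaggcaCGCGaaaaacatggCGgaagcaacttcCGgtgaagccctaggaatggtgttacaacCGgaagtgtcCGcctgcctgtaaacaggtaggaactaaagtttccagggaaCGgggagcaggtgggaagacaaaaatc
Magel2: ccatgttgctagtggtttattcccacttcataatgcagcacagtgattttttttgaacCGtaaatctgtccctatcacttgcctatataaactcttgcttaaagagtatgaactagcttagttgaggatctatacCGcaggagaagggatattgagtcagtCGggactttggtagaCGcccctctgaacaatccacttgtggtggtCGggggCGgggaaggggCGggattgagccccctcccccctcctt
Ube3a: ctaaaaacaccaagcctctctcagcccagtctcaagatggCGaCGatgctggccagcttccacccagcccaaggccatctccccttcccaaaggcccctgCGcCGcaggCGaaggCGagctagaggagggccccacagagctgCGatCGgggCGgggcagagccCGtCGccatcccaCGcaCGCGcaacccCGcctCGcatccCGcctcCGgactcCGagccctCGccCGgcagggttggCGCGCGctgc
The Ube3a window held 24 CG sites, a number reached by 12% of the 32851 RefSeq promoters, whose median was 6. Mkrn3 and Magel2 had 10 and 7 CG sites, Peg12 had 8, Ndn had 5 and the window shared by Snrpn and Snurf had 3. At least as many CG sites were found in 37.8%, 46.3%, 43.0%, 55.6% and 71.0% of all promoters, in the same order. For Snrpn only the window at the start it shares with Snurf was counted. The Snrpn exons reach further upstream, to 60450177, and a window at any other Snrpn start was left out. The letters GGGCGG, searched on both strands, occurred at 2 places in the Magel2 window, at 1 in the Ube3a window and in 32.7% of all promoters, and CACGTG occurred in none of the 7 and in 6.0% of all promoters.

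The genes fall into 2 blocks of the chromosome. Ube3a (59228750 to 59310837, plus strand) and Snrpn (59982495 to 60450177, minus strand), whose 3' part contains Snurf (59982495 to 60005199), lie in the first block. The other 4 genes have a single exon each and follow within a short interval, Ndn (62348277 to 62349928, plus), Magel2 (62376979 to 62381640, plus), Mkrn3 (62417593 to 62420153, minus) and Peg12 (62461871 to 62464510, minus). Magel2 and Mkrn3 are separated by 35952 bases, whereas 3037439 bases lie between Ube3a and Ndn.

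The raw counts on genes summed to between 41489332 and 58470286 in an embryo, and log2 levels correlated across the tested genes at 0.982 to 0.996 between embryos of a genotype. At these depths 3 counts, the limit that a count of 0 allows, equal 2.37 to 3.49 normalised read counts, which covers counting error only. As a check of the genotypes, the normalised read count of Dnmt3b was 9166 ± 4177 (SD, n = 3) in WT and 4448 ± 348 (SD, n = 3) in Dnmt3b-/- embryos. There was no overlap, as in 51.8% of all tested genes, although this count also includes the exons that are not deleted. WT embryo 2 was at 13956, against 7263 and 6280 in WT embryos 1 and 3. The log2 fold change was -1.04 (adjusted p = 0.0169 by edgeR). It was -0.85 (adjusted p = 0.0615 by edgeR) with the trend of each library with exonic GC content and length removed. WT embryo 2 stood apart in tissue content: the summed level of 6 yolk sac endoderm genes was 3517 CPM in it, against 391 and 1108 CPM in the other WT embryos and 216 to 767 CPM in Dnmt3b-/- embryos, and its 5 heart genes and 5 primitive erythroid genes were the lowest of the WT group (472 and 247 CPM). Of the genes tested in these lists, the yolk sac list had 1 of 6 lower in Dnmt3b-/- embryos by edgeR (Amn), 2 by DESeq2 and none by limma, with 3 lower at an unadjusted p under 0.05. The heart list had 1 higher (Tnnt2) and 1 lower (Nkx2-5) of 5, with 2 lower by limma, and the erythroid list had none called by edgeR, none at an unadjusted p under 0.05 and none by DESeq2 or limma. Neural tube genes were present in every embryo (238 to 359 CPM over 6 genes, with Sox1 and Pax6 higher and Sox2 lower), as were somite genes (53.2 to 91.0 CPM over 6 genes, with Tcf15 higher), and of 6 trophoblast and decidua genes 4 had no count in any embryo while Hand1 and Ascl2, which embryos also express, were not called by edgeR, DESeq2 or limma and had no unadjusted p under 0.05. Without the trend of each library with exonic GC content and length, Tnnt2, Sox1 and Tcf15 were still called, and Amn, Nkx2-5, Sox2 and Pax6 were not. In that setting Hand1 was called as higher (log2 fold change 0.82, adjusted p = 0.0311 by edgeR). Xist exceeded the summed level of 4 Y-linked genes in 2 of 3 WT and 1 of 3 Dnmt3b-/- embryos, so both genotypes hold both sexes, and none of these 5 genes was called by edgeR, DESeq2 or limma or had an unadjusted p under 0.05. WT embryo 2 was the only male of the WT group, so fits without it compare female WT embryos with mutant embryos of both sexes. It was also the lowest of the 6 embryos in the neural tube and somite sums (238 and 53.2 CPM).

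In embryos lacking active DNMT3B, Mkrn3 and Ube3a rose under TMM scaling, by 1.74-fold and 1.5-fold, while Magel2, Ndn and Peg12 did not pass the test in either direction. Thus 2 of the 5 tested genes were called, where 35.7% of all 15114 tested genes were called (edgeR quasi-likelihood test, Benjamini-Hochberg adjusted p below 0.05), and both were higher, where 17.6% of all genes were higher and 18.1% lower. None of the 5 was lower by edgeR, DESeq2 or limma or at an unadjusted p under 0.05, and none was called with a fold change above 2, as 5.9% of all genes were. The median log2 fold change of the 5 genes was 0.22, beside -0.03 over all tested genes. These calls depend on the processing. Without the trend of each library with exonic GC content and length, Ube3a was not called (log2 fold change 0.07, adjusted p = 0.679 by edgeR). Mkrn3 was still called in that setting, and Ndn was called as higher (0.50, adjusted p = 0.0385 by edgeR). The Mkrn3 call was lost without WT embryo 1 or without Dnmt3b-/- embryo 2. In whole embryos, fewer cells of a type and less RNA in each cell cannot be told apart.

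**Figure D1:**
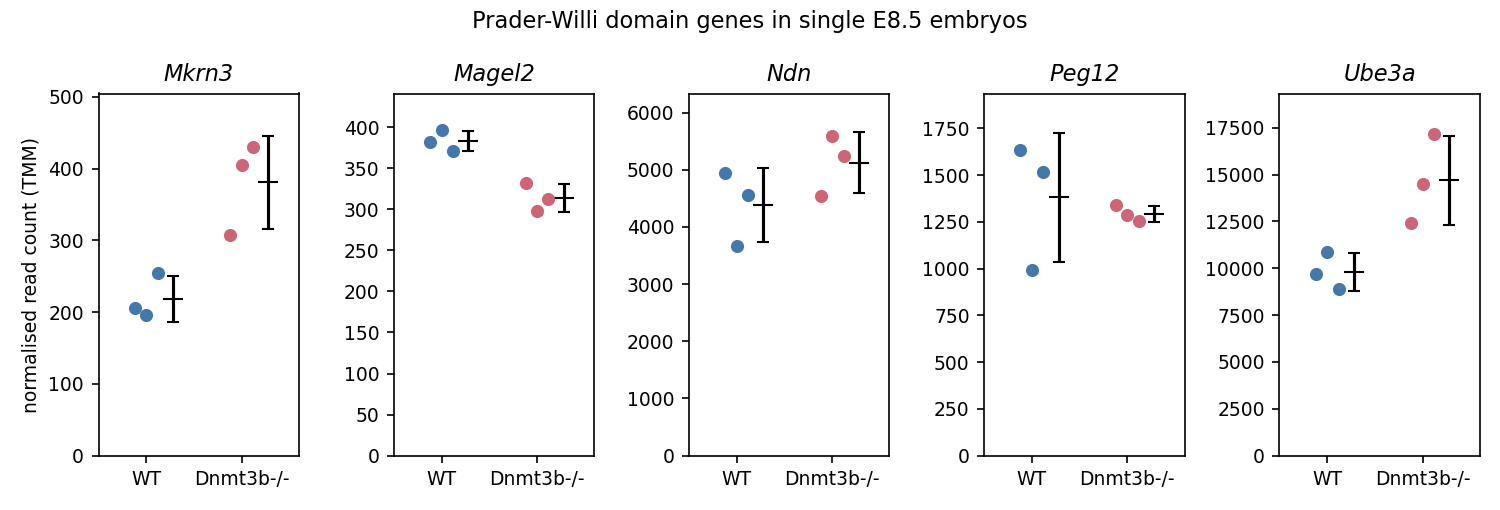
Normalised read count (TMM-scaled, linear axis from 0) of the 5 tested genes, with 1 point for each of 3 WT and 3 Dnmt3b-/- embryos and bars for the mean ± SD. The Mkrn3 and Ube3a points of the Dnmt3b-/- embryos all lie above those of WT embryos, the Magel2 points all lie below, and the Ndn and Peg12 points overlap.

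Mkrn3 encodes a makorin RING finger protein, a ubiquitin ligase known as a brake on the onset of puberty. Its normalised read count was 205, 196 and 255 in WT embryos 1, 2 and 3 and 307, 405 and 430 in the mutant embryos 1, 2 and 3. The lowest mutant embryo was therefore above the highest WT embryo. The level rose 1.74-fold, a log2 fold change of 0.80 ± 0.20 (SE; 95% confidence interval 0.35 to 1.25), with an adjusted p of 0.0148 by edgeR. The call depended on 2 of the 6 embryos. The adjusted p by edgeR was 0.0607 without WT embryo 1 and 0.0589 without Dnmt3b-/- embryo 2, at a log2 fold change of 0.75 in both cases. Without WT embryo 2 the log2 fold change was 0.73 (adjusted p = 0.03 by edgeR). Over all 14 alternatives the adjusted p by edgeR, DESeq2 or limma ranged from 0.00126 to 0.0607.

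Ube3a encodes the ubiquitin ligase E6-AP. Its normalised read count was 9703, 10892 and 8870 in the WT and 12413, 14489 and 17152 in the mutant embryos, again with no overlap. The log2 fold change was 0.58 ± 0.13 (SE, 95% confidence interval 0.29 to 0.87), a rise of 1.5-fold with an adjusted p of 0.00862 by edgeR. The gene was called whichever single embryo was left out, with a log2 fold change of 0.66 without WT embryo 2. The transcript has an unusual composition, with an exonic GC content of 37.6%, lower than in all but 1.16% of the tested genes, and exons of 9209 bases, longer than those of 96.6% of them. When the dependence of each library on exonic GC content and length was removed, the log2 fold change of Ube3a was 0.07 ± 0.11 (SE; adjusted p = 0.679 by edgeR, range over all 14 alternatives 5.21e-05 to 0.679). Mkrn3, with 49.9% GC close to the median of 50.3%, kept a log2 fold change of 0.80 (adjusted p = 0.0276 by edgeR), where 23.3% of all genes were called and 12.5% were higher. Only 267 bases, 2.9% of the Ube3a exons, overlap exons of Snhg14 on the opposite strand.

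Magel2 encodes a MAGE protein that works with TRIM27 and USP7 in endosomal protein recycling. The gene had 382, 396 and 371 normalised read counts in WT embryos and 332, 298 and 313 in Dnmt3b-/- embryos. All mutant embryos were below all WT embryos, the opposite order from Mkrn3 35952 bases away. The log2 fold change of -0.29 ± 0.14 (SE; 95% confidence interval -0.61 to 0.04) did not pass the test, with an adjusted p of 0.149 by edgeR. Of the 5 tested genes, 3 had no overlap between genotypes, 2 higher and 1 lower, where 51.8% of all genes had none, 25.3% higher and 26.5% lower. Magel2 is rich in GC, at 57.6%, and without the GC and length trend its log2 fold change was 0.21 ± 0.14 (SE; adjusted p = 0.321 by edgeR, range over all 14 alternatives 0.0872 to 0.321), so its direction depends on this choice.

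Ndn encodes necdin, a MAGE protein of postmitotic neurons that binds E2F1 and p53. Its normalised read count was 4936, 3672 and 4556 in the WT and 4541, 5588 and 5248 in the mutant embryos. The genotypes overlapped, with the lowest value in WT embryo 2, the one with the most yolk sac endoderm RNA and the lowest neural tube and somite sums. The log2 fold change was 0.22 ± 0.12 (SE; adjusted p = 0.187 by edgeR), and it was 0.11 (adjusted p = 0.438 by edgeR) without WT embryo 2. With the GC and length trend removed it was 0.50 ± 0.14 (SE), which passed the test (adjusted p = 0.0385 by edgeR, range over all 14 alternatives 0.0385 to 0.448), so that the count of called genes was again 2, Mkrn3 and Ndn in place of Mkrn3 and Ube3a.

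Peg12, also named Frat3, encodes a GSK3-binding protein of the Frat family. Normalised read counts were 1637, 991 and 1515 in the WT group, a wide spread set by WT embryo 2, and 1338, 1285 and 1253 in the mutant group. The mutant embryos lay between the WT values. The log2 fold change was -0.10 ± 0.18 (SE; 95% confidence interval -0.50 to 0.30; adjusted p = 0.70 by edgeR), and without WT embryo 2 it was -0.29 ± 0.10 (SE; adjusted p = 0.0593 by edgeR, range over all 14 alternatives 0.0593 to 0.933). It was 0.04 without WT embryo 1 and 0.35 without the GC and length trend, neither of which passed the test.

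**Figure D2:**
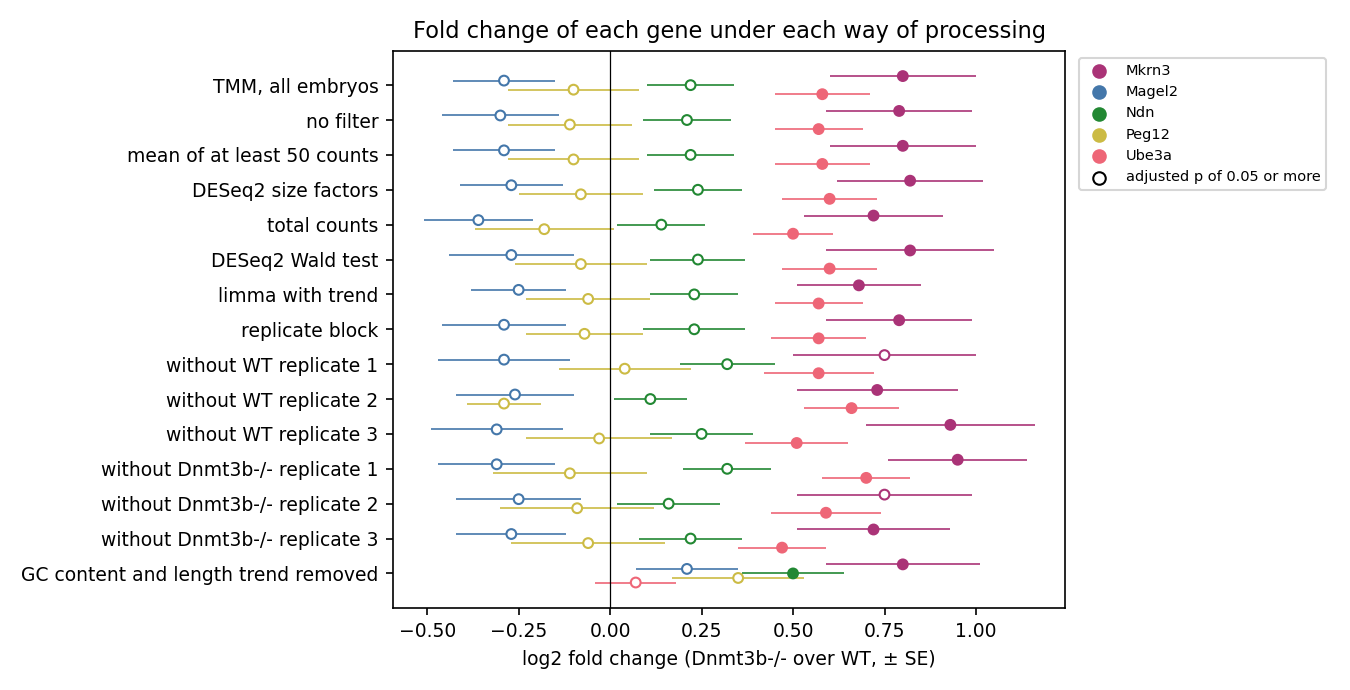
Log2 fold change (Dnmt3b-/- over WT, ± SE) of the 5 tested genes, 1 color for each gene, with all embryos under TMM scaling in the top line and each of the 14 alternatives below it, where open points have an adjusted p of 0.05 or more. Mkrn3 stays between 0.68 and 0.95, and the bottom line, without the GC and length trend, moves Ube3a from 0.58 to 0.07 and Magel2 from -0.29 to 0.21.

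Snrpn, which encodes the SmN protein of spliceosomal particles, had 1, 2 and 5 raw counts in the WT embryos and none in the Dnmt3b-/- embryos, and Snurf, the upstream reading frame of the same transcript, had none in any embryo. Of the 6 embryos only WT embryo 3, at 4.41 normalised read counts, exceeded the limit of 3 counts. These values cannot be read as the level of the transcript. All 2020 exonic bases of Snurf and 2964 of the 4098 exonic bases of Snrpn (72.3%) are shared with each other or with Snhg14 on the same strand, and a read lying in exons of more than 1 gene is left out by HTSeq-count in its usual setting. The share of reads lost in this way was not tested, and a difference in Snurf-Snrpn transcription was not measurable with these counts.

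Per base of exon the 5 tested genes differed widely in WT embryos. Ndn was highest at 55.4 ± 8.18 FPKM (SD, n = 3), above 91.3% of the tested genes, followed by Ube3a at 22.2 ± 2.30 and Peg12 at 10.9 ± 2.71 FPKM. Mkrn3 and Magel2 were low, at 1.78 ± 0.26 and 1.71 ± 0.0552 FPKM, and were the only neighbours in this order whose embryos overlapped. In Dnmt3b-/- embryos the order was the same, with Ndn at 64.7 ± 6.74, Ube3a at 33.2 ± 5.37, Peg12 at 10.2 ± 0.341, Mkrn3 at 3.10 ± 0.532 and Magel2 at 1.40 ± 0.0756 FPKM, and Mkrn3 was now apart from Magel2.

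The balance between neighbouring genes can be followed within each embryo, where library scaling cancels. The log2 ratio of Mkrn3 to Magel2 raw counts was -0.90, -1.02 and -0.54 in the WT and -0.11, 0.44 and 0.46 in the mutant embryos. Magel2 thus had more counts than Mkrn3 in every WT embryo, whereas Mkrn3 had more in Dnmt3b-/- embryos 2 and 3. The mean ratio was 1.08 higher in Dnmt3b-/- embryos on the log2 scale, a change of 2.12-fold (two-sided exact permutation test, p = 0.1, the smallest that 3 against 3 embryos allow, and 0.2 after adjustment over the 10 pairs). Among all tested genes taken singly, 51.8% had no overlap between genotypes, and the share among pairs of all genes was not computed. Of the 10 pairs of tested genes, 5 had no overlap between genotypes. They were Mkrn3 against Magel2, Ndn (difference 0.57) and Peg12 (difference 0.86), and Magel2 against Ndn (difference -0.52) and Ube3a (difference -0.86). Each of these had the same exact permutation p of 0.1, adjusted p = 0.2. The pairs share genes and are not independent of each other. Without the GC and length trend, the fitted log2 fold changes still differed in the same direction for Mkrn3 against Magel2 (0.59), Ndn (0.30) and Peg12 (0.45) and for Magel2 against Ndn (-0.29), while the difference of Magel2 against Ube3a turned to 0.14.

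**Figure D3:**
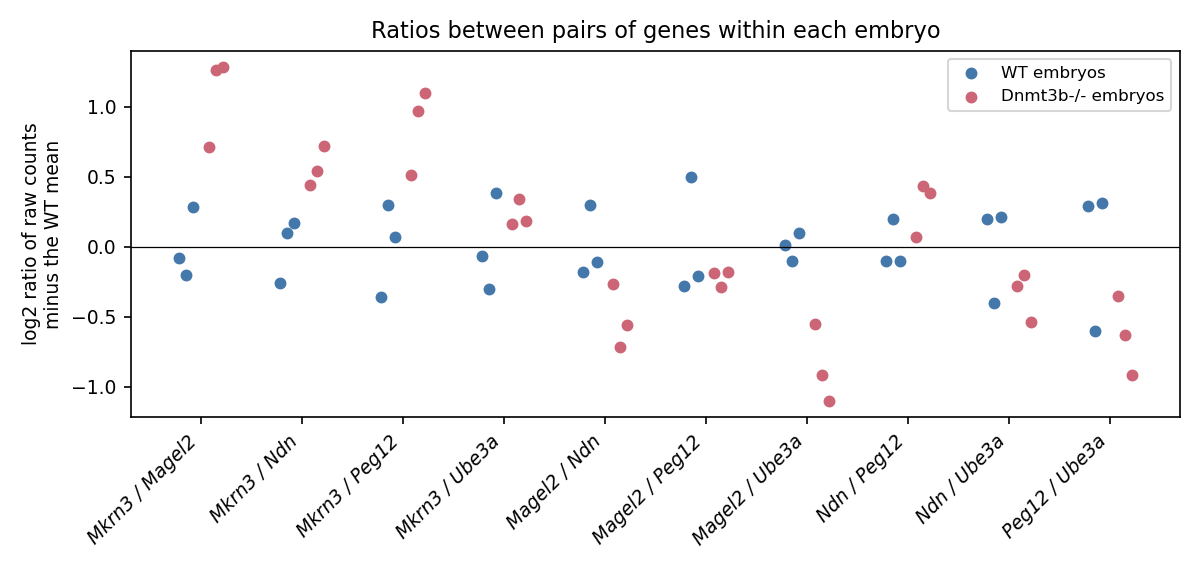
Log2 ratio of raw counts of each of the 10 pairs of tested genes within each embryo, minus the mean of the 3 WT embryos, with WT and Dnmt3b-/- embryos in 2 colors. The widest separation is that of Mkrn3 to Magel2, where the means of the genotypes differ by 1.08.

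The domain is continued on both sides by genes that are mostly not imprinted, and these moved in both directions. Of 20 flanking genes 18 were tested, of which 4 were higher, 1 was lower and 13 did not pass, with a median log2 fold change of 0.03. On the side of Ube3a, Herc2, a giant ubiquitin ligase that binds UBE3A, was the one flanking gene called as lower, by 0.56 on the log2 scale (adjusted p = 0.00213 by edgeR). At an unadjusted p under 0.05 by edgeR, 3 flanking genes were lower and 4 higher. Beyond Peg12, the nicotinic receptor subunit Chrna7 rose by 0.78, the nucleolar protein gene Mphosph10 by 0.77 and the mitochondrial epimerase gene Mcee by 0.44, and Tjp1, which encodes the tight junction protein ZO-1, rose by 0.37 (adjusted p between 0.00305 and 0.0402 by edgeR). When the GC and length trend was removed, 4 genes were again higher and 1 lower, but the lower one was Nipa2 (-0.49, adjusted p = 0.00917 by edgeR) and Herc2 no longer passed (-0.28, adjusted p = 0.0584 by edgeR), so the calls of single flanking genes rest in part on this choice. Nipa2 was singled out after its values were seen.

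**Figure D4:**
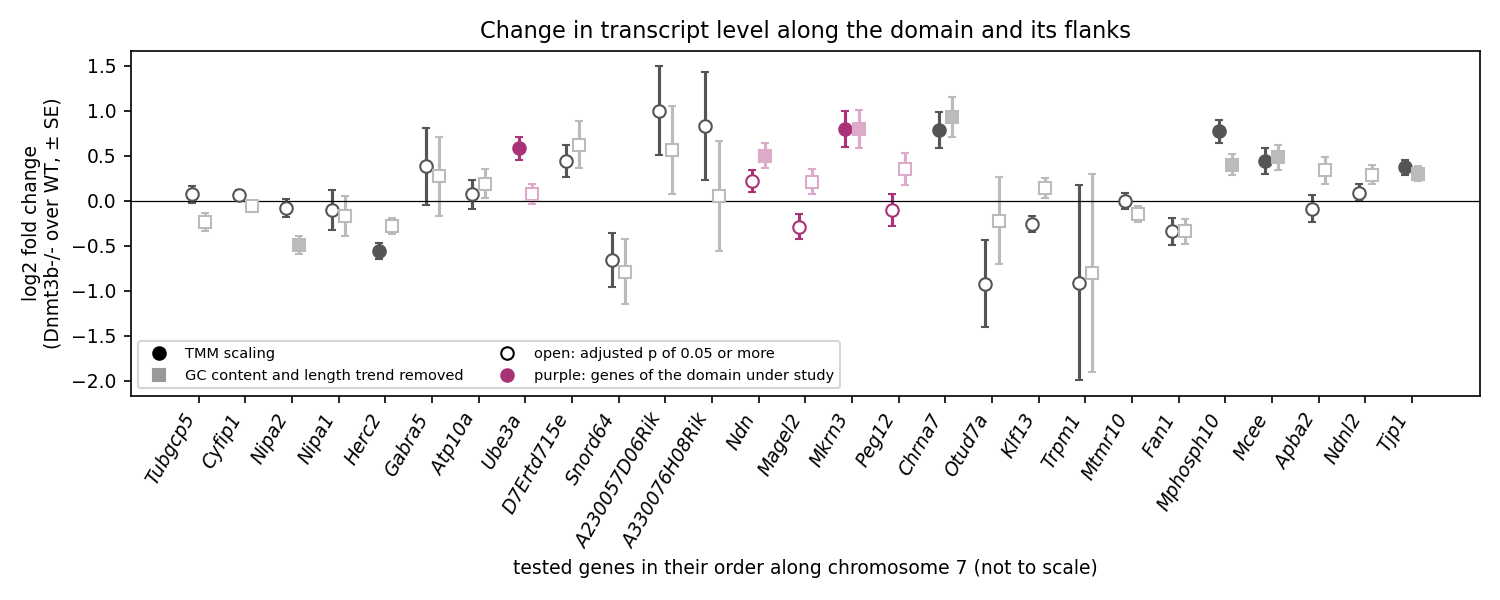
Log2 fold change (Dnmt3b-/- over WT, ± SE) of the tested genes of the domain in purple and of its flanking and non-coding genes in grey, ordered along chromosome 7 but not to scale. Circles show TMM scaling, squares the values without the GC and length trend, and open symbols an adjusted p of 0.05 or more. Called genes are interspersed with genes that did not pass, and Herc2 is the filled circle below 0.

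The non-coding transcripts of the domain were scarce or not countable. Of 26 names in the list 23 were in the table, 17 of these had no count in any embryo, among them the Snord116 genes and most Mir344 genes, and only 4 were tested. None of the 4 was called by edgeR, while 1 had an unadjusted p under 0.05, DESeq2 called 1 and limma called none. That gene was Snhg14 (listed as D7Ertd715e), the antisense partner of Ube3a, which was at 1301 ± 201 normalised read counts (SD, n = 3) in WT and 1769 ± 435 in Dnmt3b-/- embryos. Its log2 fold change was 0.44 ± 0.18 (SE; adjusted p = 0.092 by edgeR), the genotypes overlapped, and the adjusted p was 0.0376 without WT embryo 2 (range over all 14 alternatives 0.0376 to 0.277).

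SmN, the Snrpn product, takes the place of SmB in the ring of Sm proteins that the SMN complex loads onto spliceosomal RNA. This list of 16 genes was divided, with 4 higher, 7 lower and 5 that did not pass, and a median of -0.21. Of all tested genes 17.6% were higher and 18.1% lower. Snrpb, which encodes SmB, fell by 0.89 on the log2 scale (9341 ± 795 and 5054 ± 307 normalised read counts, SD, n = 3), as did Snrpd2 by 0.68, Snrpg by 0.69, Snrpe by 0.25, Gemin7 by 0.73, Gemin4 by 0.63 and Gemin5 by 0.48. In contrast Snrpf rose by 1.51, Snrpd1 by 1.09, Smn1 by 1.00 and Snrpd3 by 0.50. Their adjusted p lay between 0.000412 and 0.0286 by edgeR. Of these 11 genes, Snrpd2 (-0.21, adjusted p = 0.324 by edgeR) and Gemin7 (-0.36, adjusted p = 0.0527 by edgeR) did not pass without the GC and length trend.

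Relatives of the imprinted genes, which share their protein families, were also counted. Of these, Ndnl2 is also one of the flanking genes and Snrpb is also in the Sm list. Of 12 such genes none was higher by edgeR, DESeq2 or limma or at an unadjusted p under 0.05, 6 were lower and the median log2 fold change was -0.33. The shares over all tested genes, for this list and the next, were 17.6% higher and 18.1% lower by edgeR. The makorin gene Mkrn2 fell by 0.38, in the direction opposite to Mkrn3, and the MAGE genes Maged1 and Mageh1 fell by 0.46 and 0.68. Frat1, Snrpb and Ube3b fell as well, by 0.59, 0.89 and 0.66, and with the GC and length trend removed Frat1 was at -0.01. Of 6 genes for proteins that bind the products of the domain, 2 were higher (Usp7 by 0.29 and Trp53 by 0.35), none was lower by edgeR, DESeq2 or limma, and 1 was lower at an unadjusted p under 0.05. Usp7 was not called without the GC and length trend (0.17, adjusted p = 0.153 by edgeR), while Trp53 was (0.58).

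Of 13 genes that maintain imprints or silence chromatin, 7 were higher and 2 lower, with a median of 0.33, and 3 were higher and none lower by edgeR without the GC and length trend. Of all tested genes 17.6% were higher and 18.1% lower, and 12.5% were higher without that trend. In this list Uhrf1, which brings the maintenance methyltransferase DNMT1 to replicated DNA, rose by 0.54, whereas Trim28, the corepressor recruited to imprinting centers, fell by 0.39, and Zfp57, the zinc finger protein that recruits it, rose by 0.39 with an adjusted p of 0.0499 by edgeR. Without the GC and length trend Uhrf1 was at 0.78 and still called, whereas Trim28 turned to 0.20 (adjusted p = 0.0646 by edgeR) and Zfp57 was at 0.28 (adjusted p = 0.162 by edgeR). Early neurons, in which the domain is active, were a second point of comparison. Of 11 tested neuronal genes 2 were higher (Elavl4 by 1.05 and Pou4f1 by 1.89) and none was lower by edgeR or limma, while 1 was lower by DESeq2 and at an unadjusted p under 0.05, and the median was 0.40. Tubb3 was at -0.47 with no overlap between genotypes, as in 51.8% of all tested genes (adjusted p = 0.0579 by edgeR). Without the GC and length trend Pou4f1 was called (1.99), whereas Elavl4 was at 0.57 (adjusted p = 0.175 by edgeR) and Tubb3 at -0.01. The summed level of the neuronal list was 54.6 to 65.7 CPM in WT and 66.7 to 85.2 CPM in Dnmt3b-/- embryos, a higher range in the mutant. Its genes of most counts were Stmn2, Isl1 and Tubb3, and none of them was called by edgeR. Stmn2 was at 0.33 (adjusted p = 0.316 by edgeR) and Isl1 at 0.31 (adjusted p = 0.117 by edgeR). The sum is therefore no measure of the number of neurons, and its part in the levels of Mkrn3 and Ube3a was not tested.

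Finally, the genes whose log2 CPM followed each imprinted gene most closely over the 6 embryos were listed, as a description. The embryos form 2 genotype groups and share library preparation and scaling, and 725 genes exceeded a Pearson r of 0.95 with Mkrn3, so close profiles were common. The 2 closest were Psmc1 and Rnf170 for Mkrn3 (r = 0.9992 and 0.9983) and Zfp26 and Csnk1a1 for Ube3a (r = 0.9995 and 0.9981). Magel2 was followed by Wwc2 and Clcn2 (r = 0.9984 and 0.9976). For Ndn and Peg12, with 31 and 39 genes above 0.95, they were 2810429I04Rik and Ppap2a (r = 0.9916 and 0.9879) and Camk2a and Thsd4 (r = 0.9959 and 0.9816). No tested imprinted gene appeared among these closest genes. With only 2 places per gene, and 725 genes above 0.95 for Mkrn3, this absence cannot show whether the imprinted genes followed each other. Their own r over the 6 embryos ran in both directions. Mkrn3 was at 0.86 with Ube3a, 0.75 with Ndn, -0.04 with Peg12 and -0.97 with Magel2. Magel2 was at -0.84 with Ube3a, -0.78 with Ndn and 0.01 with Peg12. Ndn was at 0.52 with Peg12 and 0.51 with Ube3a, and Peg12 at -0.39 with Ube3a. These r include the difference between genotypes.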

How the data were processed

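RNA-Seq libraries had been made by the authors from total RNA of single embryos, after removal of ribosomal RNA, with a kit that keeps strand, and were sequenced from both ends. The authors aligned the reads to mm10 with TopHat2 2.0.12 and obtained counts over RefSeq exons with HTSeq-count 0.6.0. Neither the RefSeq release nor the strand option of that counting is given in the sources used here. The deposited raw counts were used. The table also holds 6 columns of counts normalized by the authors with DESeq2 1.4.5 and their fold changes and adjusted p-values, none of which was used. Methylation libraries were not analysed here.

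Counts were scaled by TMM and genotypes were compared by the quasi-likelihood test of edgeR 4.0.16 (R 4.3.3) over the 15114 genes that averaged 10 or more counts, with Benjamini-Hochberg adjustment. The standard error is the size of the log2 fold change divided by the square root of F. Normalised read counts are scaled to the mean library size, and FPKM and CPM were computed here from the counts and TMM-scaled library sizes. Gene positions, exon lengths, GC content and promoter sequences came from RefSeq for GRCm38.p6, in which 22604 genes were matched by symbol and 1277 by an older symbol (99.2%), and all 7 promoters were found. Ratios were compared by exact permutation tests over embryos (scipy 1.17.1). The fits were tested on simulated data.

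The alternatives were no filter, a mean of at least 50 counts, DESeq2 size factors, total counts, DESeq2 1.42.0, limma 3.58.1 with trend on log2(CPM + 1), a replicate block, omission of each single embryo, a fold threshold of 1.5 in place of 2, and removal from each library of natural splines with 5 degrees of freedom on exonic GC content and on log2 exonic length. The genes and lists were chosen with earlier results of these data known. The text names every gene of the domain, the called genes and the gene of most counts in each of the flanking, non-coding and Sm lists, called relatives, Dnmt3b, and the 2 closest profiles, whereas genes named in the other lists were picked out with their values in view. 1 gene foreseen for the flanking list is not reported here.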

Additional observations from a re-analysis of the deposited data

How the results depend on the processing

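With GC content and length removed, Magel2 turned from -0.29 to 0.21 and Peg12 from -0.10 to 0.35 on the log2 scale, Ndn reached 0.50 (adjusted p = 0.0385 by edgeR), Ube3a dropped to 0.07 (adjusted p = 0.679 by edgeR), and calls over all genes went from 5395 to 3518. The cause was not tested. When single embryos were omitted, the log2 fold change was 0.72 to 0.95 for Mkrn3 and -0.29 to 0.04 for Peg12, 1 to 2 of the imprinted genes were called (1 without WT embryo 1 or Dnmt3b-/- embryo 2) 3 to 6 flanking and non-coding genes were called against 5 with all embryos (3 without WT embryo 1 or Dnmt3b-/- embryo 2), and 3586 to 5356 genes were called in all, with the fewest calls without Dnmt3b-/- embryo 2. With a fold threshold of 1.5, 1 imprinted gene passed both thresholds, and none at 2. Scaling to total counts shifted the median log2 fold change from -0.03 to -0.11 (2143 genes higher and 3200 lower, against 2654 and 2741 with TMM) and changed no call among the imprinted genes. The replicate block left 2 imprinted genes called and 4411 genes in all. Deviations of same-numbered embryos from the means of their genotypes correlated at -0.106, -0.224 and -0.00857. Whether the numbers mark litters is not stated, and these correlations cannot decide it. DESeq2 called Snhg14 (log2 fold change 0.46, adjusted p = 0.0376). The counts of Snrpn and Snurf lie near the limit of 3 counts, and the parts of depth and of shared exons in this were not tested. The p-values of the fits set the difference between genotypes against the spread between 3 embryos of each, estimated in part from other genes.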
